A study of Rattus with 52 samples.

Results

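Lyve1, Mrc1, Cd163, F13a1, Msr1, Clec4e, Fcgr2b, C5ar1, Cd14 and Itgad are 10 genes, of 20624 in the table, that code for scavenger and pattern receptors of macrophages and for proteins such cells carry. They were picked by name, with their opposite differences between dialysed and control rats in the left ventricle (LV) already known, so their LV values are given as a description and without a test. That choice named differences in the LV and not in the kidney, where the genes were tested. Earlier results of these data were known when the genes were picked, and whether kidney results weighed in is not recorded.

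Macrophages take up debris and sense danger through surface receptors: scavenger receptors bind proteins, glycans and modified lipids for uptake, lectins and lipopolysaccharide receptors recognise microbial and cell-derived patterns, and Fc and complement receptors read antibody and complement deposits. In the heart, resident macrophages rich in such uptake receptors lie among the cardiomyocytes, and in the kidney, macrophages of the interstitium are known to increase after injury.

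The rats were male Sprague Dawley, operated on at 10 weeks of age with either Sham surgery or excision of the right kidney and both poles of the left one (5/6Nx). About 6 weeks later every rat, Controls included, had its omentum removed and a peritoneal catheter placed. PD rats then received dialysate 3 times a day for 8 days, and Control rats received none. LV and left kidney (intact in Sham rats, the remnant in 5/6Nx rats) were collected 7 weeks after the first surgery, and polyadenylated RNA of the whole tissue was sequenced, giving 52 libraries. A group of Sham rats had 6 libraries per tissue and a group of 5/6Nx rats had 7. Nothing in the labels says which LV and kidney libraries came from the same rat, and the tissues were therefore not paired.

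Total reads in the gene table were 16.7 to 111.8 M per library, with a median of 44.2 M. Group medians were 35.5 to 44.5 M in the LV and 45.7 to 52.3 M in the kidney. Over genes with a mean of at least 100 normalized reads in the tissue, the median absolute log2 distance of a library from the median of its group was largest for 5/6Nx Control replicate 1 in the kidney (0.275) and in the LV (0.225), and in LV Sham PD it was 0.196 for replicate 2 against 0.071 to 0.110 for the others. Replicate numbers were given here within each group, and a shared number does not tie an LV library to a kidney library. Values below are normalized reads, that is, reads divided by the size factor of the library. They compare a gene across samples and not one gene with another, since they are not scaled to transcript length. Differences named log2 are on the deposited scale, which is flat near 0: it puts no reads at 5.92, 10 normalized reads at 6.50, 100 at 7.67 and 1000 at 10.13, and therefore shrinks the change of genes with few reads. In whole tissue, fewer cells of a type and less RNA per cell cannot be told apart.

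All 10 genes were measured in every LV library, with at least 16 reads each. In the kidney, Cd163 had 0 reads in 2 libraries, both of the Sham Control group, and the other 9 genes had at least 7 reads in each library. The label macrophage receptor holds for most of the genes, with limits. F13a1 encodes the A subunit of coagulation factor XIII, a protein cross-linking enzyme that macrophages and platelets carry, and is no receptor. Lyve1 is also a marker of lymphatic endothelium, and C5ar1, Cd14, Clec4e and Fcgr2b are not restricted to macrophages. Of the 11 macrophage markers listed, all 11 were in the table, and Csf1r, Adgre1, Cd68 and C1qa, which define the lineage, had reads in all 52 libraries. The Fcgr2b and Itgad genes have close relatives (the other Fc gamma receptors, and the alpha chains of the other leukocyte integrins), so their reads may in part have been split with those genes.

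In the LV of Sham rats, all 10 genes had higher mean levels with PD than in Control rats, at 1.68 to 2.18 times the Control mean. In the LV of 5/6Nx rats, all 10 had lower means with PD, at 0.68 to 0.89 times the Control mean. The median log2 difference over the 10 genes was 0.73 in Sham and -0.21 in 5/6Nx rats, while the median over all genes tested was 0.01 and 0.00. This opposition is what the genes were chosen for and is not a finding. Of 15451 genes measured in both comparisons, 30.9% were higher with PD in Sham and lower in 5/6Nx rats by any amount, 1.79% by more than 0.25 each way and 0.110% by more than 0.5 each way.

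**Figure D1:**
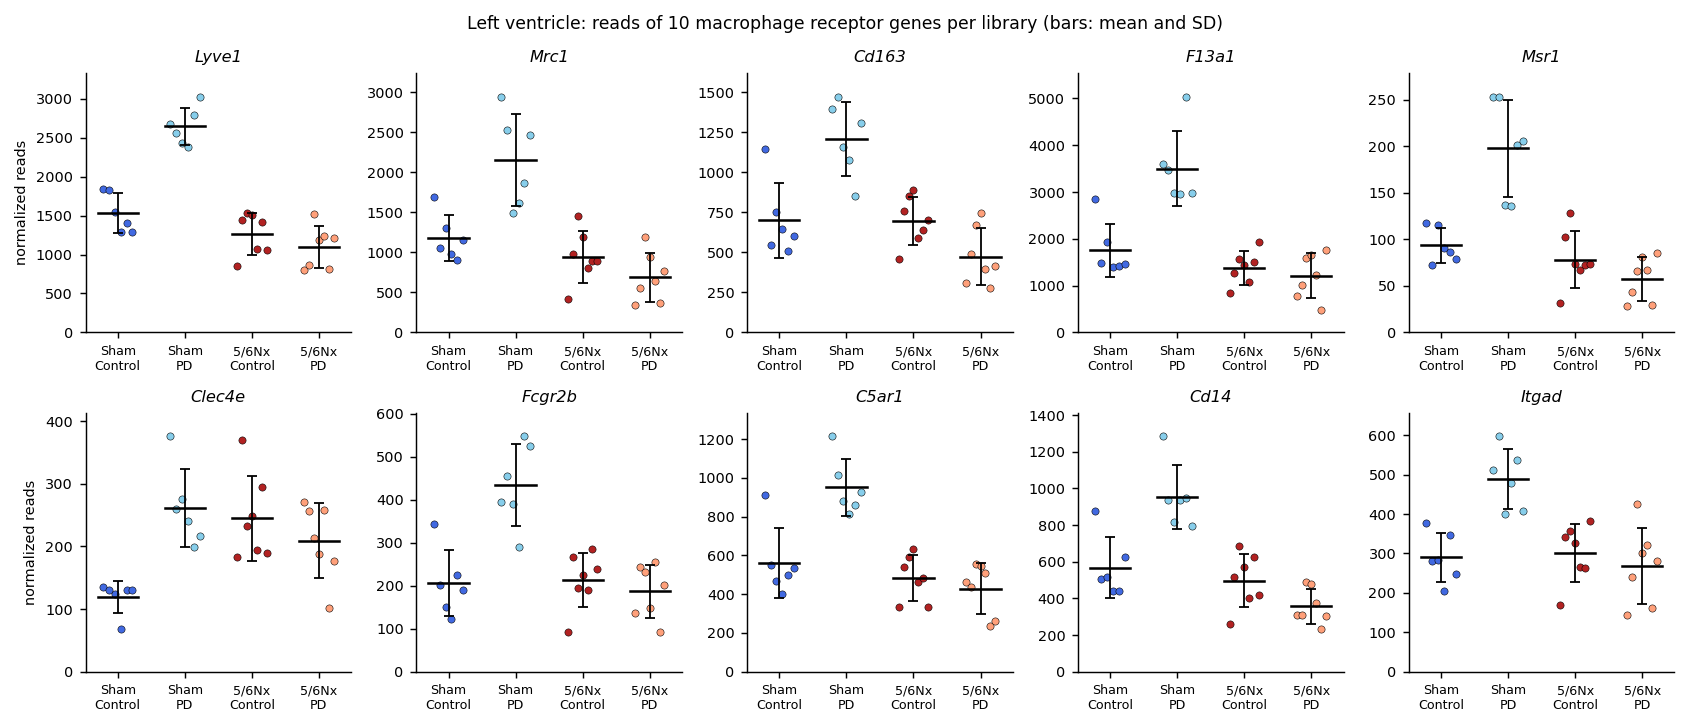
Normalized reads of each gene in every LV library (1 point per library, n = 6 per Sham group, n = 7 per 5/6Nx group), with group means as horizontal lines and SD as bars, each axis starting at 0. The Sham PD group has the highest mean for all 10 genes, and the Sham Control values of Clec4e, at most 135, lie below all those of Sham PD and of 5/6Nx Control.

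Among the uptake receptors, Lyve1 (ENSRNOG00000026902), which binds hyaluronan, had no overlap between the Sham groups. Its lowest, median and highest values were 1286, 1477 and 1842 normalized reads in Sham Control and 2385, 2616 and 3026 in Sham PD, and in 5/6Nx rats they were 852, 1424 and 1527 in Control and 804, 1184 and 1520.4 in PD. The 6 Sham PD libraries stood above all 20 other LV libraries, and the 5/6Nx groups overlapped. The means were 1535 ± 252 and 2646 ± 239 (SD, n = 6) in Sham, and 1269 ± 269 and 1092 ± 272 (SD, n = 7) in 5/6Nx rats.

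Mrc1 (ENSRNOG00000018251) encodes the mannose receptor, which takes up mannose-bearing glycoproteins and collagen fragments. It ran from 908 through a median of 1098 to 1695 normalized reads in Sham Control, from 1491 through 2165 to 2943 in Sham PD, from 414 through 896 to 1458 in 5/6Nx Control and from 337 through 645 to 1193 in 5/6Nx PD. The Sham groups overlapped, with 4 of the 6 PD libraries above every Control library, and 5 of the 7 PD libraries of 5/6Nx rats were below the median of their Controls. Cd163 (ENSRNOG00000010253), the receptor that clears haemoglobin bound to haptoglobin, ran from 509 through 622 to 1143 in Sham Control, from 848 through 1230.4 to 1470.1 in Sham PD, from 461 through 702 to 887 in 5/6Nx Control and from 279 through 415 to 747 in 5/6Nx PD. Its 5/6Nx PD mean was 0.68 times that of 5/6Nx Control, and 4 of the 7 PD libraries lay below every Control library.

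Msr1 (ENSRNOG00000012779), the class A scavenger receptor for modified lipoproteins and bacterial surface molecules, had the fewest reads in the LV. Its lowest, median and highest values were 72, 88.7 and 117 normalized reads in Sham Control, 136, 204 and 253 in Sham PD, 31.1, 73.2 and 128 in 5/6Nx Control and 28.5, 66.3 and 85.4 in 5/6Nx PD. The Sham PD libraries all lay above those of Sham Control, at 2.11 times the mean. F13a1 (ENSRNOG00000015957) ran from 1388 through 1466 to 2841 in Sham Control, from 2949 through 3224 to 5036 in Sham PD, from 842 through 1430.3 to 1936 in 5/6Nx Control and from 483 through 1221 to 1759 in 5/6Nx PD. Its Sham groups did not overlap, and its log2 difference with PD in Sham rats, 0.97, exceeded that of the 9 other genes on the deposited scale. By ratio of means F13a1, at 2.00, was below Clec4e (2.18), Msr1 (2.11) and Fcgr2b (2.11).

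Of the pattern receptors, Cd14 (ENSRNOG00000017819) presents lipopolysaccharide to Toll-like receptor 4, and Clec4e (ENSRNOG00000061394) is the lectin Mincle, which binds glycolipids and a protein released by dead cells. Cd14 ran from 440.0 through 513 to 875 normalized reads in Sham Control, from 795 through 936 to 1285 in Sham PD, from 261 through 516 to 687 in 5/6Nx Control and from 235 through 311 to 491 in 5/6Nx PD. None of the 7 Cd14 values of 5/6Nx PD exceeded the median of 5/6Nx Control. Clec4e ran from 67.6 through 130.2 to 135 in Sham Control, from 199 through 249.6 to 376 in Sham PD, from 183 through 233 to 369.7 in 5/6Nx Control and from 101 through 214 to 271 in 5/6Nx PD.

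Clec4e differed from the other 9 genes in its level without dialysate. The 5/6Nx Control mean was 245 ± 67.8 (SD, n = 7) against 119.7 ± 25.7 (SD, n = 6) in Sham Control, 2.05 times higher, with no overlap. Without dialysate, the other 9 genes stood at 0.78 to 1.04 times the Sham Control mean in 5/6Nx LV, and their groups overlapped. Groups of 5/6Nx Control and Sham Control did not overlap for 1.08% of 15792 genes.

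Fcgr2b (ENSRNOG00000046452) is the inhibitory receptor for IgG, and C5ar1 (ENSRNOG00000047800) is the receptor for the complement fragment C5a. Fcgr2b ran from 123 through 196 to 344 normalized reads in Sham Control, from 290.2 through 426 to 548 in Sham PD, from 93.4 through 226 to 285 in 5/6Nx Control and from 92.4 through 202 to 255 in 5/6Nx PD. C5ar1 ran from 400.0 through 515 to 909, from 812 through 904 to 1215, from 332 through 485 to 631 and from 235 through 461 to 556 normalized reads in the same order of groups. For both genes Sham Control replicate 1 was the 1 Control library that reached into the range of Sham PD. Itgad (ENSRNOG00000019728), the integrin alpha D chain, which pairs with the beta 2 chain and binds Vcam1, ran from 204 through 282 to 377, from 400.3 through 496 to 598, from 169 through 326 to 383 and from 144 through 281 to 425 normalized reads. Its Sham groups did not overlap.

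Over the 10 genes, Sham PD lay wholly above Sham Control for 5 (Lyve1, F13a1, Msr1, Clec4e and Itgad), where 1.19% of all genes did, and 5/6Nx PD overlapped 5/6Nx Control for all 10, where 0.333% of all genes did not overlap. Under PD, 5/6Nx LV lay wholly below Sham LV for 8 genes, all but Clec4e and Itgad, at 0.29 to 0.55 times the Sham mean for the 9 genes other than Clec4e. Of 15800 genes, 6.01% lay wholly below in that pair of groups. Since these contrasts use the libraries on which the genes were chosen, nothing is read from the shares. Sham Control replicate 1 carried the highest value of all 10 genes in its group, and Sham PD replicate 2 was the library of its group farthest from the others over all genes. With any 1 of the 12 Sham libraries left out, the log2 difference stayed between 0.53 and 1.12 over the 10 genes, and with any 1 of the 14 libraries of 5/6Nx rats left out it stayed between -0.61 and -0.04. Without Sham PD replicate 2 the ratios to the Control mean ranged from 1.61 for Itgad to 2.19 for Clec4e.

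**Figure D2:**
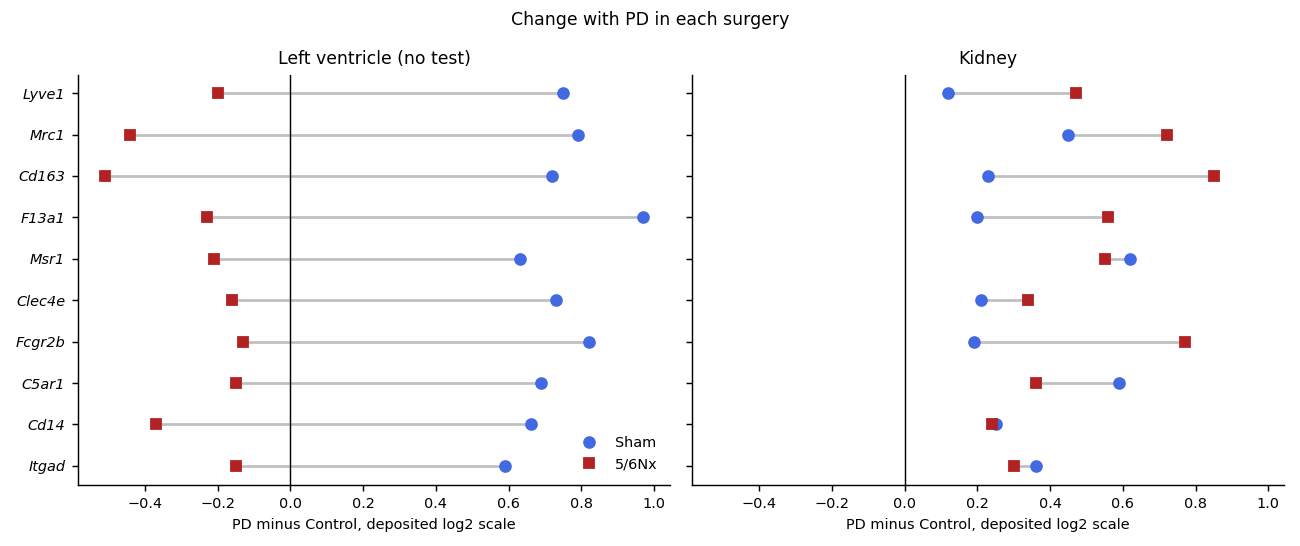
Difference of group means, PD minus Control, on the deposited log2 scale, for Sham rats (circles) and 5/6Nx rats (squares), with a grey line joining the 2 values of a gene. In the LV the circles lie between 0.59 and 0.97 and the squares between -0.51 and -0.13, while in the kidney all 20 values are above 0.

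General markers of macrophages moved with the 10 genes in the LV. Summed over the 11 markers, the level ran from 11244 to 26126 normalized reads in Sham Control, 21706 to 32495 in Sham PD, 7815 to 18766 in 5/6Nx Control and 6392 to 15612 in 5/6Nx PD. The ratio of mean sums, PD to Control, was 1.56 in Sham and 0.70 in 5/6Nx rats, with 11 of 11 markers higher in the former and 10 of 11 lower in the latter. By limma's moderated test with Benjamini-Hochberg adjustment over all genes, 2 of the 11 passed in Sham PD and 3, all lower, in the interaction of surgery and PD. In 5/6Nx PD 0 passed by limma and by limma-voom, and 6 had an unadjusted p under 0.05. A separate list of resident macrophage markers, 7 of 8 in the table, had summed levels of 30643 to 37325 normalized reads in Sham Control, 31307 to 36743 in Sham PD, 35320.4 to 42891 in 5/6Nx Control and 33932 to 42831 in 5/6Nx PD, and ratios of 1.02 and 1.01. Most of that sum was Gas6, at means of 26956 to 34869.5. Of the 6 markers tested, 4 were higher with PD in Sham and 5 lower in 5/6Nx rats. The mean of Pf4 was higher with PD in both surgeries, at 2220.2 and 4756 in Sham Control and PD and 1745 and 3784 in 5/6Nx Control and PD. In Sham PD 1 passed limma as higher, in the interaction 1 as lower, and in 5/6Nx PD 0 passed by limma or limma-voom and 3 had an unadjusted p under 0.05. Timd4, a marker of long-lived resident macrophages, was at 0 in 22 of the 26 LV libraries. Expressed per 100 reads of the 11 general markers, the PD to Control ratio of the 10 genes was 1.05 to 1.37 in Sham and 0.94 to 1.31 in 5/6Nx LV, and no gene separated the groups. Clec4e again stood apart. Per 100 marker reads its mean was 0.792 in Sham Control, 1.05 in Sham PD, 1.70 in 5/6Nx Control and 2.16 in 5/6Nx PD. On this scale its 5/6Nx groups lay wholly above the matching Sham groups. Since Clec4e is not restricted to macrophages, the scaled value is not its level per macrophage, and which cells carried it was not tested. This scaling was added after the values had been seen and is a description.

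**Figure D3:**
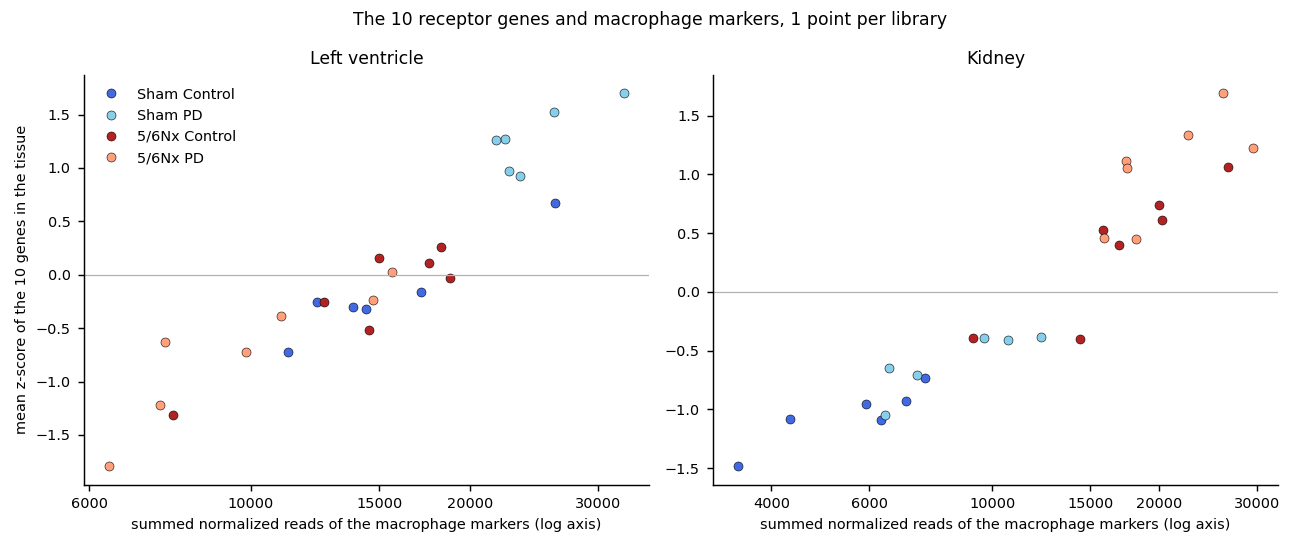
Mean z-score of the 10 genes, taken within each tissue, against the summed normalized reads of 11 macrophage markers on a log axis, with 1 point per library. In the LV the 6 Sham PD libraries have z-scores of 0.92 to 1.70 and the highest other library is Sham Control replicate 1 at 0.67, and in the kidney the Sham libraries lie between -1.48 and -0.38.

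Markers of other blood cells also differed with PD. Summed neutrophil markers ran from 2728 to 9017 normalized reads in Sham Control, 12451 to 26471 in Sham PD, 6125 to 15665 in 5/6Nx Control and 10115 to 29647 in 5/6Nx PD, with 8 of 10 tested markers past the limma threshold in Sham and 3 of 11 in 5/6Nx rats, all higher. In 5/6Nx rats 8 of the 11 neutrophil markers were higher with PD and 3 lower. There the Control and PD means were 1103 and 879 normalized reads for Csf3r, 197 and 170.3 for Cxcr2, and 1056 and 1028 for Lcn2. Cd177, a neutrophil surface protein, was at 0 in 8 of the 26 LV libraries. Its means were 1.99 and 86.4 normalized reads in Sham Control and PD, and 3.81 and 67.9 in 5/6Nx Control and PD. The study reports it among the largest LV increases with PD in both surgeries. Summed platelet markers, which bear on F13a1, had PD to Control ratios of 2.03 in Sham and 1.45 in 5/6Nx LV, with 0 of 5 past the threshold by limma or limma-voom in either and 4 and 3 at an unadjusted p under 0.05. Summed lymphatic endothelial markers, which bear on Lyve1, had ratios of 1.18 and 0.96. In Sham rats 6 of the 7 lymphatic markers were higher in mean log2 value with PD and 1 passed limma, as higher. In 5/6Nx rats 2 of 7 were higher and 0 passed, by limma, by limma-voom and at an unadjusted p under 0.05.

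Summed monocyte markers, 5 of the 8 listed being in the table, ran from 2746 to 4964 normalized reads in Sham Control, 3678 to 6593 in Sham PD, 2536 to 4200.5 in 5/6Nx Control and 2044 to 3659.7 in 5/6Nx PD, with PD to Control ratios of 1.28 in Sham and 0.74 in 5/6Nx LV. Of those with enough reads to test, 2 of 3 were higher with PD in Sham and 4 of 4 lower in 5/6Nx rats. By limma and by limma-voom 0 passed in either surgery, 2 and 1 had an unadjusted p under 0.05, and 1 of 5 passed in the interaction, as lower. Ccr2, which defines classical monocytes, was at 0 in 8 LV libraries. The part of each of these cell types in the levels of the 10 genes was not tested.

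The 10 genes varied together from library to library. Over the 26 LV libraries the 45 pairs had a median Pearson's r of 0.85, from 0.22 to 0.95, and 0.65 after the group means were taken out. Clec4e was the loosest of the set in the LV, with a median r of 0.33 against the other 9 genes, but reached 0.85 in the kidney. Outside the set, the genes most like the mean of the 10 in the LV were the complement components C1qb (r = 0.946) and C1qc (r = 0.943), the immunoglobulin-like receptor gene Cd300le (0.940), Ms4a4a and the lysosomal protease gene Ctss (0.927 each), Fxyd2 and the folate receptor gene Folr2 (0.925 each), and Alox5ap (0.923), of 12605 genes compared. In the kidney they were Lcp1, a leukocyte actin-bundling protein (0.972), Clec10a, a galactose-binding macrophage lectin (0.970), Il21r, Lyc2, Col6a1, Arhgap25, Mnda and Il2rg (0.957 to 0.966), of 13210 genes. These are descriptions over libraries that share their groups and sequencing, and C1qb and C1qc belong to the macrophage markers above.

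In rats without kidney excision or dialysate, all 10 genes were higher in LV than in kidney libraries with no overlap, where 29.3% of all genes were. The ratio of LV to kidney means was 123.59 for Cd163, 59.02 for F13a1 and 10.49 for Mrc1, and between 2.16 and 4.03 for Cd14, Fcgr2b, Msr1, Lyve1, Itgad, Clec4e and C5ar1. For Cd163 the Sham kidney held 0 to 11.3 normalized reads per library against 509 to 1143 in Sham LV. The size factors were taken over both tissues together, and the tissues were not compared by a test.

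In the kidney, which the stated choice did not name, removal of kidney tissue went with higher levels of 9 of the 10. Against Sham Control, the remnant of 5/6Nx Control rats had 3.03 to 10.64 times the mean level of Mrc1, Cd163, F13a1, Msr1, Clec4e, Fcgr2b, C5ar1, Cd14 and Itgad, and all 9 passed limma at a Benjamini-Hochberg adjusted p under 0.05 over all genes. Lyve1 was the exception, at 442 ± 96.3 (SD, n = 6) and 559 ± 278 (SD, n = 7) normalized reads, a log2 difference of 0.17 (SE 0.27, limma adjusted p = 0.619). In this comparison 24.4% of 16419 genes were called higher and 52.2% called in either direction. The 9 genes stayed past the threshold with any 1 of the 13 libraries left out. Cd163 met the read filter for this test only because of the 5/6Nx libraries, where it was higher. The median log2 difference of the 10 genes was 1.07 and that of all genes was -0.01.

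Fcgr2b ran from 44.3 through a median of 68.4 to 103 normalized reads in Sham Control kidney and from 231 through 461 to 802 in 5/6Nx Control kidney, with no overlap (log2 difference 1.69, SE 0.20, limma adjusted p = 3.63e-05). Itgad ran from 41.1 through 68.7 to 117 and from 165 through 467 to 710.3 in the same groups, again with no overlap (1.68, SE 0.21, limma adjusted p = 5.05e-05). Cd14 ran from 210.3 through 249.6 to 332 and from 556 through 773 to 1041, and had the lowest adjusted p of the 10 genes (1.31, SE 0.13, limma adjusted p = 1.16e-05). For these 3 genes and Cd163, each 5/6Nx Control kidney exceeded each Sham Control kidney, as did 11.0% of all genes.

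Cd163 was near its floor in the intact kidney, at 0 to 11.3 normalized reads, and ran from 26 through 59.6 to 86.1 in the remnant, a ratio of means of 10.64 (log2 difference 1.01, SE 0.14, limma adjusted p = 7.42e-05). The Sham Control value rests on 40.0 reads summed over its 6 libraries. Whether Cd163 was tested at all depended on the 5/6Nx group, since the Sham Control values alone would not have met the read filter. Mrc1 ran from 66.8 through 111 to 187 in Sham Control and from 170.3 through 671 to 1044 in 5/6Nx Control (1.65, SE 0.31, limma adjusted p = 6.40e-04), and F13a1 from 12.2 through 26.4 to 51.2 and from 50.6 through 183 to 215 (1.08, SE 0.20, limma adjusted p = 5.38e-04). For both of these uptake and cross-linking genes, 6 of the 7 remnants lay above every Sham Control kidney. Msr1, Clec4e and C5ar1 had means 3.96, 3.65 and 3.03 times higher, with limma adjusted p of 0.00472, 0.00132 and 0.00118 and 6 of the 7 remnants above every Sham Control kidney for each gene. The remaining remnant was replicate 1 for Mrc1, F13a1, Msr1 and Clec4e, and replicate 6 for C5ar1.

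**Figure D4:**
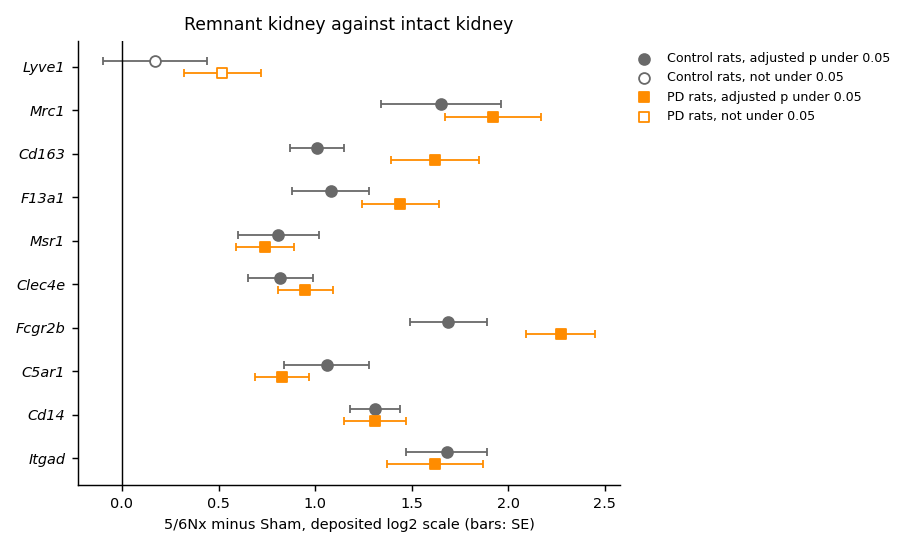
Difference in kidney between 5/6Nx and Sham rats on the deposited log2 scale, for Control rats (circles) and PD rats (squares), with SE bars from limma and filled symbols where the adjusted p was under 0.05. The 9 genes other than Lyve1 lie between 0.74 and 2.27 with filled symbols, and Lyve1 lies at 0.17 and 0.52 with open ones.

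Under PD the same surgery comparison gave the same 9 genes, and the groups did not overlap for any of the 9, where 20.2% of 16450 genes were called higher, 40.1% called at all and 7.75% lay wholly above. Cd163 ran from 5.06 through 9.28 to 18.0 normalized reads in Sham PD and from 40.6 through 253 to 297 in 5/6Nx PD, 17.88 times higher (log2 difference 1.62, SE 0.23, limma adjusted p = 1.29e-04). Here too Cd163 met the read filter only because of the 5/6Nx libraries, and its Sham PD value rests on 70.0 summed reads. Fcgr2b ran from 54.0 through 90.5 to 140.3 and from 453 through 954 to 1044, 8.95 times higher (2.27, SE 0.18, limma adjusted p = 4.78e-06). F13a1 was 6.60 times, Mrc1 5.44 times and Itgad 4.60 times higher, Clec4e, Cd14, Msr1 and C5ar1 were 2.15 to 3.65 times higher, and the highest limma adjusted p among the 9 was 0.00139, for Msr1. Lyve1 had means of 491 ± 120.2 (SD, n = 6) and 769.5 ± 248 (SD, n = 7), with 5 of 7 remnants above every intact kidney (log2 difference 0.52, SE 0.20, limma adjusted p = 0.0515). It passed with size factors taken over the compared libraries (0.0419) and without 5/6Nx PD replicate 1, 5/6Nx PD replicate 6 or Sham PD replicate 1, and the adjusted p ranged from 0.00587 to 0.121 over the alternatives. This comparison shares no library with that of the Control rats.

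**Figure D5:**
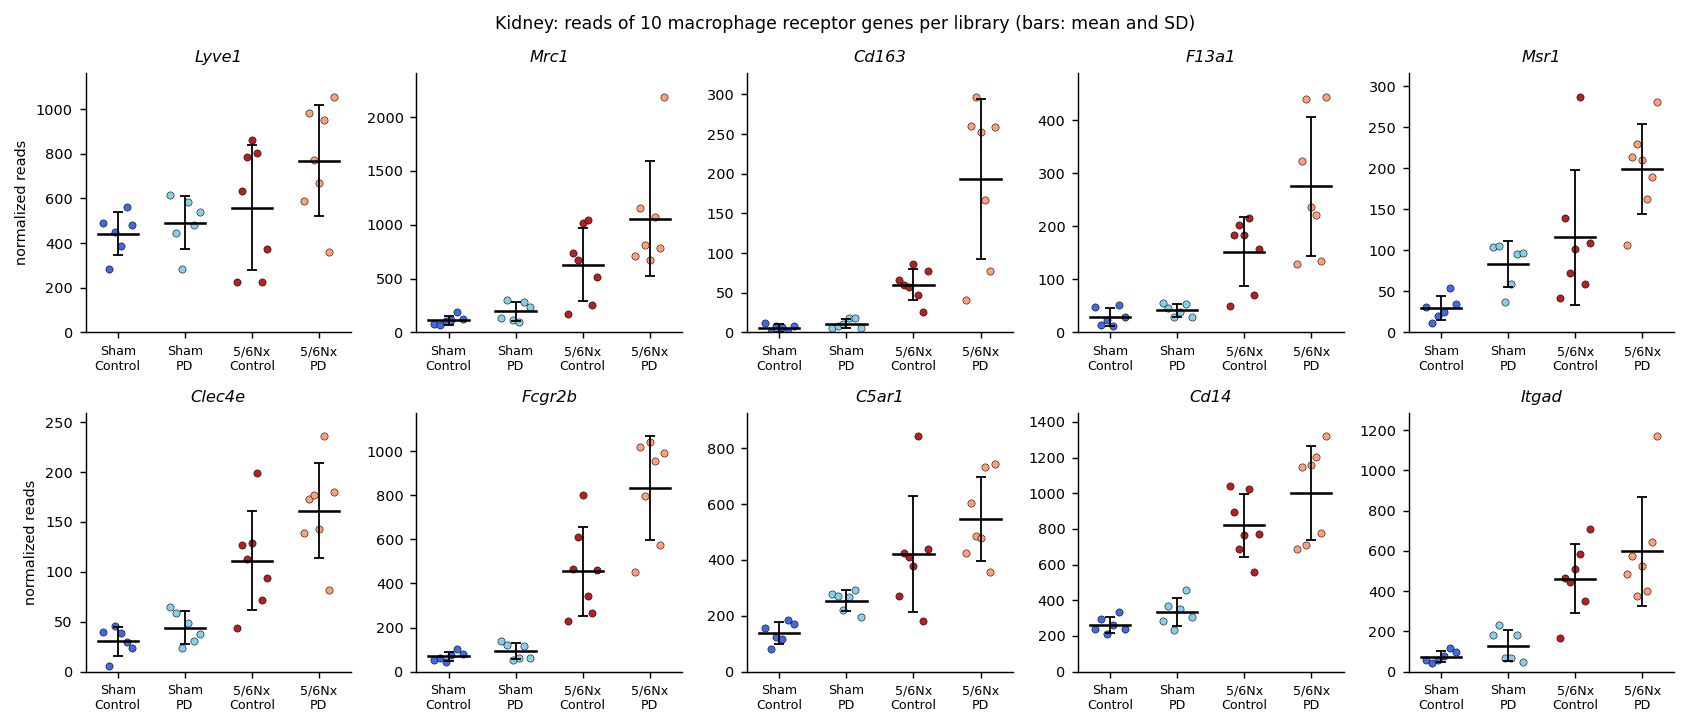
Normalized reads of each gene in every kidney library (1 point per library, n = 6 per Sham group, n = 7 per 5/6Nx group), with group means as horizontal lines and SD as bars, each axis starting at 0. For all 10 genes the means are ordered Sham Control, Sham PD, 5/6Nx Control and 5/6Nx PD from low to high, and for the 9 genes other than Lyve1 the 5/6Nx PD group lies wholly above the Sham PD group.

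With dialysate the kidney means of all 10 genes were higher than in Control rats of the same surgery, but none passed limma here. At the same adjusted p threshold, the study's own DESeq2 comparisons listed Msr1 as higher with PD in Sham kidney and Cd163 in 5/6Nx kidney. Those comparisons called more genes in both surgeries than limma did here. The study's supplement names only the largest changes, so others of the 10 genes may be among its calls. In Sham kidney the ratio of means ran from 1.11 for Lyve1 to 2.84 for Msr1. By limma, 0 of the 9 genes tested passed (Cd163 had too few reads), where 0.143% of 16090 genes were called, 3 had an unadjusted p under 0.05, where 17.3% of all genes did, and limma-voom on recovered reads called 1. C5ar1 ran from 80.5 through 141 to 186 normalized reads in Sham Control and from 197 through 268 to 291 in Sham PD, and was the 1 gene of the 10 whose groups did not overlap, where 1.36% of all genes did not (log2 difference 0.59, SE 0.12, limma adjusted p = 0.0549, and 0.0487 with limma-voom). Its adjusted p ranged from 0.0487 to 0.373 over the alternatives. Msr1 ran from 12 through 27.8 to 54.2 and from 37.2 through 96.3 to 105, with 5 of 6 PD libraries above every Control library (0.62, SE 0.14, limma adjusted p = 0.0744). It passed without Sham PD replicate 3 (0.0488), and its adjusted p ranged from 0.0488 to 0.315 over the alternatives.

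In the remnant kidney the PD to Control ratio ran from 1.22 for Cd14 to 3.22 for Cd163, and the groups overlapped for all 10 genes, where those of 0.0910% of all genes did not. By limma 0 of 10 passed, where 0.0121% of 16481 genes did, 5 (Mrc1, Cd163, F13a1, Msr1 and Fcgr2b) had an unadjusted p under 0.05, where 4.18% of all genes did, and limma-voom called 0. Cd163, at 60.2 ± 19.8 and 193 ± 100.5 normalized reads (SD, n = 7 each), had the lowest adjusted p of the set (log2 difference 0.85, SE 0.23, limma adjusted p = 0.751), and 5 of its 7 PD libraries lay above every Control library. Fcgr2b, at 455 ± 201 and 834 ± 235, followed with a log2 difference of 0.77 (SE 0.23, limma adjusted p = 0.851). The median log2 difference of the 10 genes was 0.51 and that of all genes was 0.00.

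The PD differences of the 10 genes in the kidney had the same sign in both surgeries. Their opposite signs in the LV are what the genes were chosen for, so the contrast between the tissues is not a finding. The interaction, which subtracts the log2 difference with PD in Sham rats from that in 5/6Nx rats, was -0.23 for C5ar1, 0.58 for Fcgr2b and 0.61 for Cd163 in the kidney and between -0.07 and 0.36 for the other 7 genes. By limma 0 of 10 passed, where 0% of 17096 genes did, 1 (Cd163) had an unadjusted p under 0.05, where 4.47% of all genes did, and limma-voom called 0. Cd163 met the read filter of the interaction only because of the 5/6Nx libraries. In the LV the same quantity was -1.23 to -0.74, without a test and as the choice of the genes required. Whether the interaction differed between the tissues was not tested.

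The remnant kidney also held higher levels of markers of many cell types. Summed macrophage markers ran from 3488 to 7577 normalized reads in Sham Control, 6412 to 12222 in Sham PD, 9232 to 26613 in 5/6Nx Control and 15914 to 29441 in 5/6Nx PD, and 9 of 11 passed limma as higher in 5/6Nx against Sham in Control and in PD rats. In Control rats, T cell markers passed for 5 of 5 (ratio of mean sums 4.88), B cell markers for 4 of 4 tested (3.98) and fibroblast markers for 3 of 6 (3.65), all higher, and lymphatic endothelial markers for 4 of 7 higher and 1 lower (2.71). The sum of neutrophil markers was 10.74 times higher, most of it Lcn2, which injured tubules also make, and 3 of 7 tested passed. Proximal tubule markers passed as lower for 3 of 4 (0.32) and those of other nephron segments for 4 of 6 (0.63). Their part in the levels of the 10 genes was not tested.

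Per 100 reads of macrophage markers, the kidney surgery differences were not alike among the 10 genes. In Control rats the 5/6Nx to Sham ratio on this scale was 3.62 for Cd163, 2.11 for Fcgr2b, 2.10 for Itgad, 1.74 for Mrc1 and 1.73 for F13a1, near 1 for Cd14 (0.99) and C5ar1 (0.96), and 0.40 for Lyve1, whose 5/6Nx libraries, at 1.58 to 4.96, lay wholly below the Sham ones, at 6.87 to 8.93. Under PD it was 6.97 for Cd163, 3.91 for Fcgr2b, 2.78 for F13a1 and 2.26 for Mrc1, with no overlap for Fcgr2b, F13a1 and Mrc1, and 0.62 for Lyve1. These ratios were not tested.

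Other receptors of the same kinds, and the ligands and partners of the 10 genes, were taken from lists written by function, 118 genes of which 107 were in the table. In the LV of Sham rats, 8 of 99 tested were called higher with PD and 0 lower, where 0.933% of all genes were called higher, and the median log2 difference of the list was 0.29. Haptoglobin (Hp), the ligand partner of Cd163, rose from 242 ± 137 to 1024 ± 543 normalized reads (SD, n = 6; log2 difference 1.65, SE 0.30, limma adjusted p = 0.0203). Vcam1, the endothelial ligand of beta 2 and alpha 4 integrins, rose from 1802 ± 322 to 3736 ± 1353 (limma adjusted p = 0.0391), the hyaluronan synthase Has1 from 51.7 ± 16.1 to 159 ± 83.1 (0.036) and the macrophage growth factor Csf1 from 2617 ± 337 to 3922 ± 642 (0.0351). Among the receptors, the scavenger receptor Stab1 rose from 1655 ± 179.8 to 2339 ± 359.9 (0.0422), the activating receptor Trem1 from 42.8 ± 11.8 to 113 ± 41.6 (0.0298) and the IgG transporter Fcgrt from 6048 ± 1061 to 8839.5 ± 1105 (0.0391). The count was 27 without Sham PD replicate 2 and 15 without Sham Control replicate 1, and 1 to 4 without any other 1 of the 12 libraries.

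In the LV of 5/6Nx rats, Vcam1 alone of 97 tested was called, from 1183 ± 269.9 to 4432 ± 2854 normalized reads (SD, n = 7; log2 difference 1.65, SE 0.28, limma adjusted p = 0.0374), where 0.0896% of all genes were called. The call was lost without any 1 of 9 of the 14 libraries, namely 5/6Nx Control replicates 1, 3, 4, 5, 6 and 7 and 5/6Nx PD replicates 3, 4 and 6, where the count was 0. The median log2 difference of the list was -0.16, with 29 of 97 genes higher. In the LV interaction of surgery and PD, 0 of 99 were called higher and 2 lower, where 0.693% of all genes were called: Axl, a receptor for apoptotic cells, and Siglec1, the macrophage sialic acid lectin, each with a log2 interaction of -1.04 (SE 0.25, limma adjusted p = 0.0468). Siglec1 had means of 278 and 408 normalized reads in Sham Control and PD and of 307 and 164 in 5/6Nx Control and PD, and Axl 6177, 8729, 4835 and 3142. The count was 19 without 5/6Nx Control replicate 1, 11 without Sham PD replicate 2, 9 without Sham Control replicate 1, 7 without Sham PD replicate 6, 5 without 5/6Nx PD replicate 3 or 5, and 0 to 3 without any of the other 20.

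In the kidney, limma called 0 of 97 listed genes tested with PD in Sham rats, where limma-voom called 1 and 28 had an unadjusted p under 0.05, beside 17.3% of all genes (0.143% called). In 5/6Nx rats limma called 0 of 100, limma-voom called 0 and 9 had an unadjusted p under 0.05, beside 4.18% of all genes (0.0121% called). The study's own DESeq2 comparisons, at the same adjusted p threshold, did call listed genes. Among its largest increases with PD were Scara5 in Sham kidney and Fpr1 in 5/6Nx kidney. Between surgeries, 55 of 99 were called higher and 8 lower in Control rats, where 24.4% of all genes were called higher and 52.2% in either direction. In PD rats 63 of 100 were called higher and 6 lower, where 20.2% of all genes were called higher and 40.1% in either direction. The list median was 0.65 in Control and 0.61 in PD rats, and the median of all genes was -0.01 in both. With 5/6Nx in Control rats, the lipid-sensing receptor Trem2 went up from 50.5 ± 15.8 to 600.4 ± 267 normalized reads (log2 difference 2.21, SE 0.22, limma adjusted p = 1.16e-05), and the beta-glucan receptor Clec7a from 296 ± 66.3 to 979 ± 305 (limma adjusted p = 7.19e-05). Among partners of the 10 genes, the complement protein C3 rose from 684 ± 216 to 4798 ± 1690.2 (limma adjusted p = 3.81e-06). The lipopolysaccharide-binding protein Lbp, which hands its ligand to Cd14, rose from 211 ± 43.6 to 1459.9 ± 593 (limma adjusted p = 8.67e-06). The fibrinogen chain Fgb rose from 145 ± 103 to 1872 ± 1236 (limma adjusted p = 9.71e-05). Havcr1, the apoptotic cell receptor of injured proximal tubules, rose from 1356 ± 1008 to 24278 ± 17636 (limma adjusted p = 5.30e-05). Under PD, Cd5l, a secreted scavenger protein of macrophages, had 0 reads in all 12 Sham kidneys and means of 27.6 and 197 in 5/6Nx Control and 5/6Nx PD, and Hmox1, the haem-degrading enzyme downstream of Cd163 uptake, stood at 308 ± 174 in Sham PD and 1299.8 ± 296 in 5/6Nx PD (limma adjusted p = 5.16e-05).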

How the data were processed

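Polyadenylated RNA of LV and kidney was sequenced in 52 libraries, grouped by tissue, surgery and treatment from the labels. Per the labels, the authors trimmed reads with Trim Galore and cutadapt, aligned them to rn6 with HISAT2 (2.1.1 in the labels), and used DESeq2; the study's methods also name StringTie2 for quantification. The library kit is stranded, and whether counting used strand is not given in the sources used here. The authors deposited log2 values for 20624 genes in the form that the variance stabilisation of DESeq2 gives. Undoing it gave normalized reads and, per library, whole reads (100% whole within 0.01 reads). The authors also deposited tables of their own comparisons (log2 fold changes, p-values and adjusted p-values), which did not enter the tests here. Of the columns with values per sample, 0 were left out.

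Comparisons were tested on the deposited log2 values with limma (version 3.58.1, under R 4.3.3 with statmod 1.5.0), using a mean-variance trend and robust moderation. A gene entered if the number of libraries with 10 or more normalized reads was no less than the size of the smaller group. P-values were Benjamini-Hochberg adjusted over all genes tested, threshold 0.05. The fits were tested on simulated data. Gene names came from the deposited table, where 1008 genes have a name that occurs more than once; IDs kept them apart. Replicates are separate libraries. Nothing in the labels says more of their origin, the methods speak of 6 to 7 rats per group, and no library repeated another (chi-square per gene at least 21.8 within groups).

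The 10 genes, the gene lists and the markers were chosen with earlier results of these data known, and the LV contrasts of the 10 genes got no test. Named genes were the 10, up to 4 called genes of the largest log2 change per list and comparison (2 with the most reads where none was called), the 8 most similar genes per tissue with a mean of at least 100 normalized reads, and markers whose sums moved with a result. The lists share Cd68, Csf1r, Siglec1, Timd4, Cd209b and Fcer1a with the markers, and none of the 10 genes is a marker. Alternatives were limma-voom on the recovered reads, log2 of normalized reads plus 1, size factors over the compared libraries, no filter, one fit over the 4 groups per tissue, and each library left out in turn. The scaling to macrophage markers was added after the data were seen.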

Additional observations from a re-analysis of the deposited data

Results flagged for a closer look

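Each of the 80 gene and group sets (10 genes, 8 groups) was searched for a library far from the others of its group, which chance gives in about 1 of 20 sets, and 9 had one. In LV Sham Control, replicate 1 was the highest for F13a1, at 2841 normalized reads with the next at 1928, and for C5ar1, at 909 with the next at 550.2, and replicate 4 was the lowest for Clec4e, at 67.6 with the next at 124. In LV Sham PD, replicate 5 was the highest for F13a1 (5036, next 3594) and replicate 1 for Cd14 (1285, next 946).

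In Kidney 5/6Nx Control, replicate 5 was the highest for Msr1 (287, next 139) and for C5ar1 (843, next 438). In Kidney 5/6Nx PD, replicate 7 was the highest for Mrc1 (2189, next 1157) and for Itgad (1171, next 643).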

How the results depend on the processing

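The LV differences of the 10 genes, which had no test, kept their sign under all alternatives run. With log2 of normalized reads plus 1, the Sham values moved to 1.05 for Msr1 and 1.13 for Clec4e. The 9 kidney genes called between surgeries stayed called under all alternatives run, in Control and in PD rats. In the kidney of Sham rats limma-voom called 1 of the 10 genes (C5ar1) and 1 other listed gene, and leaving out 1 library gave 0 to 1 of the 10 and 0 to 1 listed genes. In the kidney of 5/6Nx rats 1 listed gene was called with no filter and 1 with all 4 groups in one fit.

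Counts of listed genes in the LV moved most. For Sham PD there were 8 as reported, 5 with no filter, 3 with all 4 groups in one fit and 1 to 27 with 1 library left out. For 5/6Nx PD there was 1, 0 with no filter and 0 to 1 with 1 library left out. For the interaction there were 2, 7 with limma-voom, 0 with no filter and 0 to 19 with 1 library left out. In the kidney interaction, where none of the 10 genes was called, the sign turned with limma-voom for Mrc1 (-0.01), Cd163 (-0.06) and Clec4e (-0.11), and with log2 of normalized reads plus 1 for Clec4e (-0.05). With 1 library left out it ranged from -0.17 to 0.09 for Msr1, from -0.08 to 0.07 for Cd14 and from -0.23 to 0.07 for Itgad. The cause of these changes was not tested. Genes with few reads, above all Cd163 in Sham kidney, are the least precise. No paired analysis was possible because the labels give no replicate numbers and tie no LV library to a kidney library.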
